A study of Mus musculus with 101 samples.

Results

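The stretch of mouse chromosome 9 between 12 and 45 Mb held 581 of the 43513 genes in the deposited copy-number matrices. Members were chosen by position: a gene counted when the GRCm38.p6 RefSeq annotation placed it in the interval, and Mre11a, Chek1 and Keap1 were left out by the same rule. The interval itself had been picked from the measured values, for losses in KB1(L1363P)P and KP tumours against gains in KB1P and KB2P tumours, and for its relation to Yap1 in the same tumour. Those contrasts are therefore given as descriptions, without a test. Of the members, 352 were protein-coding genes, 133 pseudogenes, 72 long noncoding RNA genes and 11 microRNA genes, and 166 carried an olfactory receptor symbol. The first member was Gm29785 at 12.19 Mb and the last was Cd3d, a T cell receptor subunit, at 44.99 Mb.

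The data were sequencing of genomic DNA for copy number from 98 mammary tumours and 3 spleens. The spleens were titled L1363P, KB1P and KP, and none was titled KB2P. Tumours came from 4 genotypes: KB1(L1363P)P (n = 24), KP (n = 18), KB1P (n = 31) and KB2P (n = 25). In the names of these mouse models K stands for Cre recombinase driven by the promoter of the epithelial keratin gene Krt14, P for loss of Trp53, B1 for loss of Brca1 and B2 for loss of Brca2. Loss of Trp53 is thus shared by all 4 groups, and KB1(L1363P)P is the model of a BRCA1 amino acid change that disturbs binding of PALB2 through the coiled coil. The study set out to compare tumours with this variant, across histology classes, with the other models. Sarcomatoid histology was labelled in 12 KB1(L1363P)P, 10 KP and 1 KB1P tumours, carcinosarcoma in 9, 2 and 1, and adenocarcinoma in 3, 6 and 29. Every one of the 25 KB2P tumours was an adenocarcinoma.

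A segment value is the log2 of the ratio to the neutral level, averaged by the authors' segmentation over a stretch without a copy-number change, and a value of 0 is neutral. The deposited copy score calls a gain where it lies above 2 and a loss where it lies below 2. Among the members a gain call began at a segment value of 0.32 and a loss call at -0.43. Copy number reaches genes by the stretch: neighbours share one segment until a breakpoint separates them, so members are not independent of each other. Tumours gain extra copies of growth-promoting genes through amplification, in which a short stretch is copied many times. They also change whole chromosomes by missegregation, which moves all genes on them a little. Yap1, the transcriptional coactivator at the end of the Hippo pathway, and the apoptosis inhibitors Birc2 and Birc3 lie together before the interval, at 7.9, 7.8 and 7.8 Mb, and are a known amplification site in mouse mammary tumours.

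The highest segment value of any member lay over a cluster of 3 microRNA genes in the host transcript Mir100hg. MicroRNAs pair with target messages through the seed, bases 2 to 8 of the mature strand, and repress them. Members of the let-7 family are known to restrain growth genes such as Hmga2, and miR-125b is the vertebrate relative of the worm microRNA lin-4. The strands below are those the sequence table lists for these genes, with the seed in capitals; the 5p strand of let-7a, which carries the let-7 seed, is not used here. They run 5′ to 3′, from RefSeq on GRCm38.p6, and all lie on the plus strand. The genes Mir100, Mirlet7a-2 and Mir125b-1 lie at chr9:41531425-41531504, chr9:41536716-41536811 and chr9:41581926-41582002.
mmu-miR-100-5p: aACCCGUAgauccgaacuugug
mmu-miR-100-3p: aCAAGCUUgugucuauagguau
mmu-let-7a-2-3p: cUGUACAGccuccuagcuuuc
mmu-miR-125b-5p: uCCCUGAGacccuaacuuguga
mmu-miR-125b-1-3p: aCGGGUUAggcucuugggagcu
All 11 microRNA members matched the sequence table. The 19 mature strands listed for them had 19 different seeds; let-7a-5p is not among these.

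Some samples need a remark before the results. The profiles of KB2P replicates 10 and 12 correlated with r = 0.986 across placed genes, and those of KB1(L1363P)P replicates 4 and 12 with r = 0.954, so each pair may not be independent. KB1P replicate 8 has conflicting labels, and 10 KB1P tumours are titled KB1PM, a term the labels do not explain. The labels name 9 library series: all sarcomatoid KP tumours were in one series, and the 2 series of KB2P held no other genotype. In 3 pairs of KB1(L1363P)P tumours (replicates 6 and 7, 18 and 19, 23 and 24) the titles share the number before the point, and the labels do not say what it marks. Some KB1P tumours of different library series share a title number too, and no fit took account of that. Whether each tumour had its own animal is not labelled, so a p-value here reflects only how far these samples scatter. In the 3 spleens the interval lay between -0.0014 and 0.0013.

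The interval sat slightly below neutral in most tumours of KB1(L1363P)P and KP, and was clearly above neutral in a minority of KB1P and KB2P tumours. The mean segment value over the members was -0.10 ± 0.17 in KB1(L1363P)P, -0.16 ± 0.26 in KP, 0.18 ± 0.36 in KB1P and 0.16 ± 0.31 in KB2P (SD over 24, 18, 31 and 25 tumours). Single tumours spanned -0.37 to 0.44 with a median of -0.13 in KB1(L1363P)P, and -0.68 to 0.26 with a median of -0.14 in KP. They spanned -0.20 to 1.25 with a median of 0.0024 in KB1P, and -0.55 to 1.09 with a median of 0.035 in KB2P. The ranges of all 4 genotypes overlapped. The medians of KB1P and KB2P were near neutral, so their positive means rest on the upper tail of the tumours. Within KB2P the mean was 0.54 ± 0.41 in library series 3499 (n = 5) and 0.066 ± 0.20 in series 3196 (n = 20), and series moved with the result; its part was not tested.

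**Figure D1:**
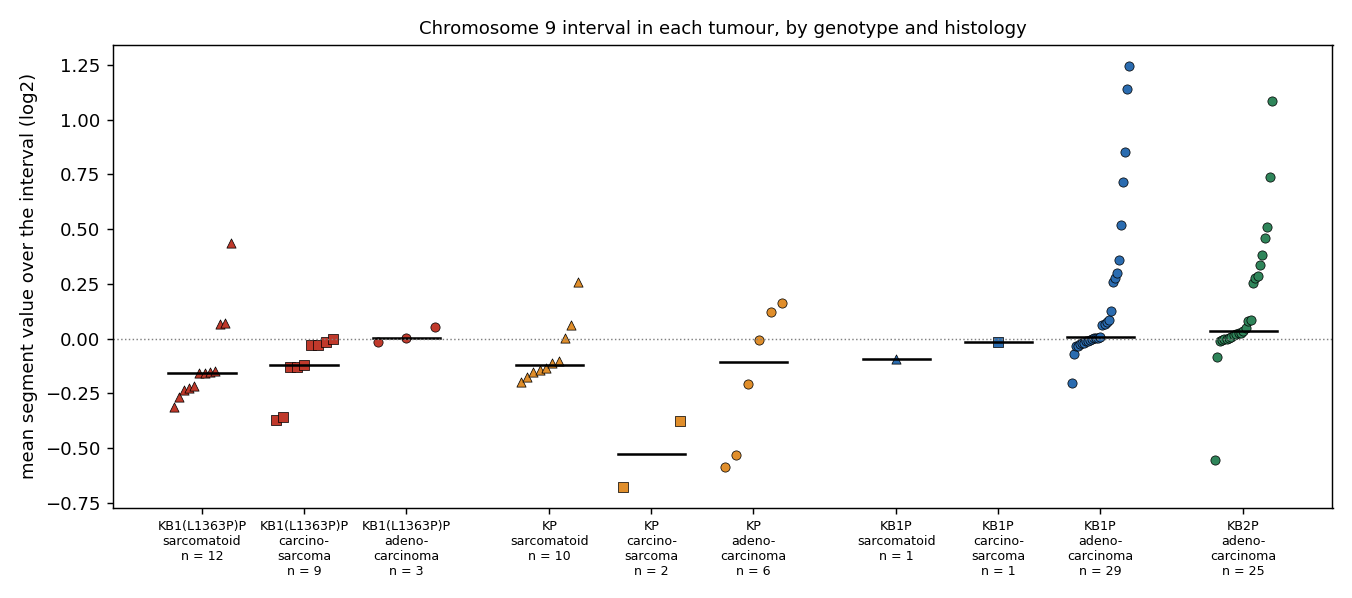
Mean segment value (log2, vertical axis) of the 581 members in each of the 98 tumours, by genotype and histology; each point is a tumour and each bar is the group's median. Most KB1(L1363P)P and KP tumours with sarcomatoid histology lie below 0, while KB1P and KB2P adenocarcinomas gather near 0 with an upper tail to 1.25 and 1.09.

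The label of losses against gains therefore held only in part. An interval mean of at most -0.1 was found in 14 of 24 KB1(L1363P)P tumours, 12 of 18 KP tumours, 1 of 31 KB1P tumours and 1 of 25 KB2P tumours. An interval mean of at least 0.1 was found in 1, 3, 10 and 9 tumours of the same groups. Scaling was also changed by subtracting the autosomal median of a tumour from its values. The interval then averaged -0.079 in KB1(L1363P)P, -0.13 in KP, 0.17 in KB1P and 0.16 in KB2P. The median over KB1(L1363P)P tumours was then -0.079, above the cutoff of -0.1, so fewer than 14 of them passed it. In KP the median was -0.13. Exact counts were not taken at this scaling. The shallow decreases rarely reached the authors' loss call. At least 50% of the members were called lost in 0 of 24 KB1(L1363P)P, 3 of 18 KP, 0 of 31 KB1P and 1 of 25 KB2P tumours. At least 50% were called gained in 1, 0, 6 and 6 tumours of these groups. The exception among KB1(L1363P)P tumours was replicate 1, a sarcomatoid tumour at 0.44 along the whole of chromosome 9.

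Set against the rest of the genome, the upper tail of KB1P and KB2P was ordinary and the scarcity of losses was the larger departure. The interval was chosen from these same values, which favours both this scarcity and the low values in KB1(L1363P)P and KP. On average 18.1% ± 33.9 of the members and 18.3% ± 14.3 of all placed autosomal genes were called gained in a KB1P tumour (SD, n = 31). In KB2P tumours these shares were 20.6% ± 37.8 of members and 18.0% ± 12.7 of autosomal genes (SD, n = 25). Called losses covered 1.60% ± 4.87 of members against 18.2% ± 12.0 of autosomal genes in KB1P, and 3.19% ± 15.5 of members against 18.6% ± 6.85 of autosomal genes in KB2P. In KB1(L1363P)P tumours 59.0% ± 48.2 of members but 26.9% ± 12.7 of autosomal genes had a segment value of at most -0.1, and in KP tumours 68.0% ± 44.6 of members and 26.0% ± 13.7 of autosomal genes (SD, n = 24 and 18). Gene by gene, the median member was called gained in 1 KB1(L1363P)P tumour, 0 KP, 5 KB1P and 5 KB2P tumours. Over all placed autosomal genes that median was 0, 0, 5 and 4. The median member was called lost in 0, 3, 0 and 1 tumours of these groups. Over all placed autosomal genes the median for losses was 1, 0, 5 and 4.

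In KB1(L1363P)P and KP tumours the interval mostly had the level of the rest of chromosome 9. The interval mean lay within 0.1 of the mean beyond 45 Mb in 21 of 24 KB1(L1363P)P tumours and 14 of 18 KP tumours, but in 12 of 31 KB1P and 8 of 25 KB2P tumours. It lay at least 0.1 above it in 3, 3, 17 and 14 tumours of these groups, and at least 0.1 below it in 0, 1, 2 and 3. From 12 Mb to the end of the chromosome, 19 of 24 KB1(L1363P)P tumours had no step at all, a step being a change of over 0.05 in segment value between neighbouring placed genes. The same held for 10 of 18 KP, 7 of 31 KB1P and 0 of 25 KB2P tumours. Beyond 45 Mb the mean was -0.16 ± 0.21 in KB1(L1363P)P, -0.19 ± 0.22 in KP, -0.11 ± 0.25 in KB1P and -0.099 ± 0.27 in KB2P, a smaller spread between genotypes than inside the interval. The choice of the interval for its contrast between genotypes favours this, and favours intervals above the rest in KB1P and KB2P. Atm, the damage-signalling kinase at 53.4 Mb, averaged -0.15, -0.21, -0.14 and -0.090 in these groups. Ctnnb1, the gene of beta-catenin at 120.9 Mb, averaged -0.17, -0.18, -0.032 and 0.11.

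**Figure D2:**
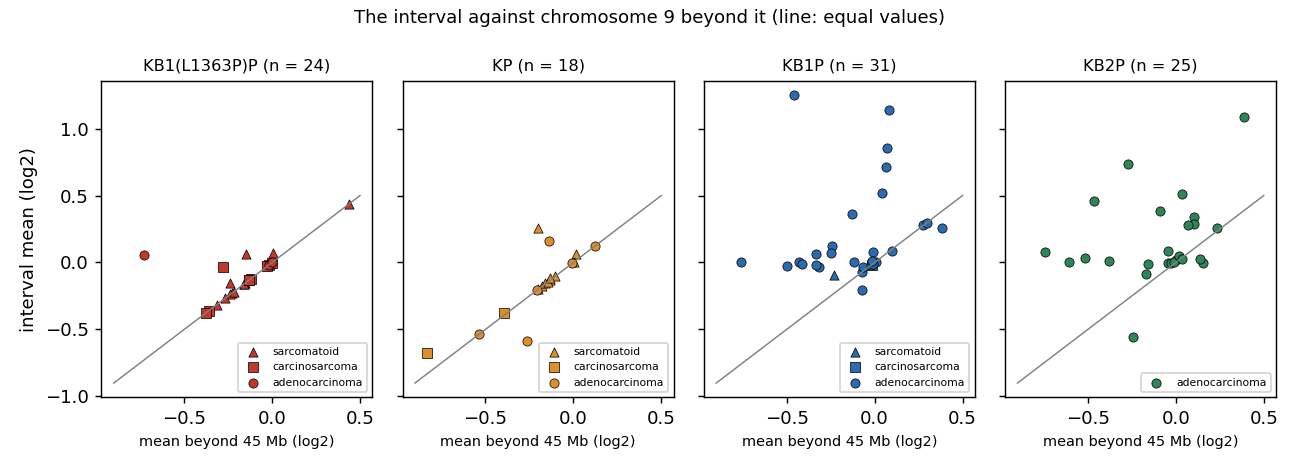
Interval mean (log2, vertical axis) against the mean of the 1189 placed genes beyond 45 Mb (log2, horizontal axis) in each tumour, one panel per genotype, with symbols for histology and a line of equal values. KB1(L1363P)P and KP tumours lie along the line, while 17 of 31 KB1P and 14 of 25 KB2P tumours lie at least 0.1 above it.

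**Figure D3:**
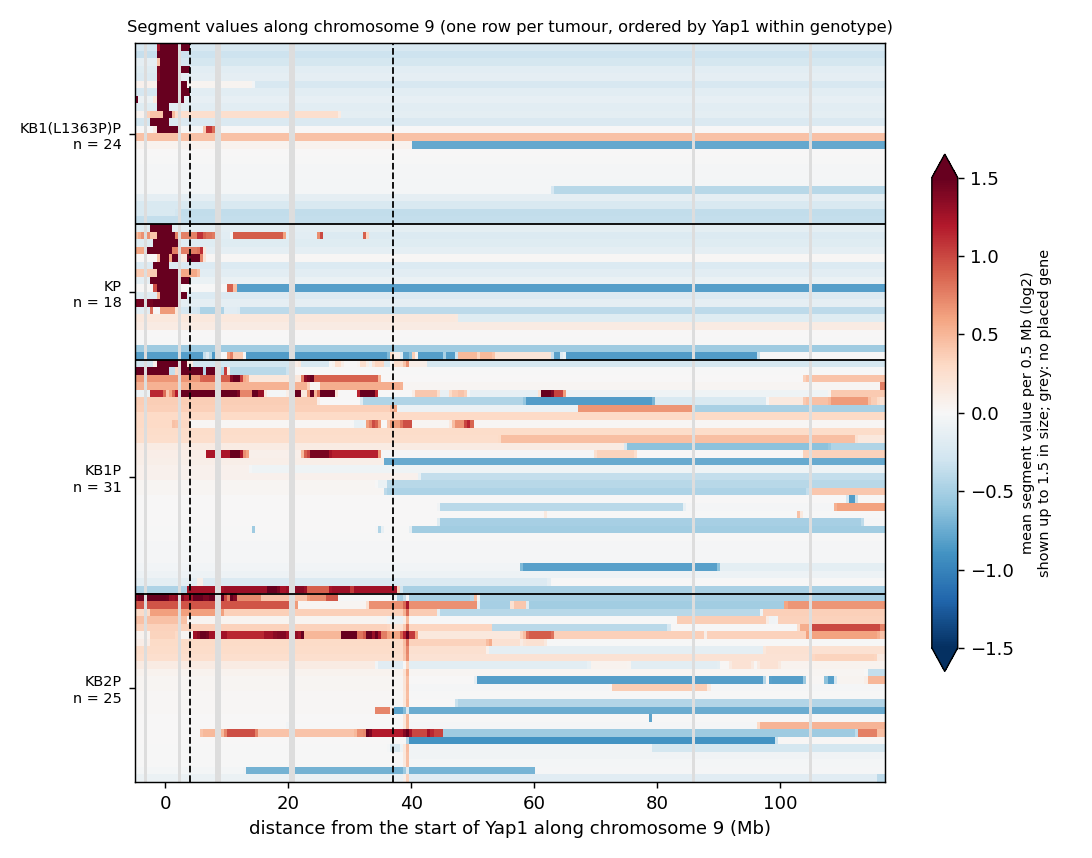
Segment values in windows of 0.5 Mb along chromosome 9, one row per tumour, ordered within genotype by Yap1, with distance from the start of Yap1 on the horizontal axis, dashed lines at the bounds of the interval and colours that saturate at 1.5 in size. The dark red block at 0 in KB1(L1363P)P and KP tumours is the Yap1 amplification, which mostly stops before the first dashed line; in KB1P and KB2P tumours red stretches fill parts of the interval.

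Yap1 itself had a segment value of at least 1 in 12 of 24 KB1(L1363P)P and 11 of 18 KP tumours, against 2 of 31 KB1P and 1 of 25 KB2P tumours. Among the tumours with such a Yap1 value, the interval mean was at most -0.1 in 10 of 12 KB1(L1363P)P and 9 of 11 KP tumours. Without it, the interval mean was at most -0.1 in 4 of 12 KB1(L1363P)P and 3 of 7 KP tumours. In KB1(L1363P)P the interval ranged from -0.32 to 0.070 with a median of -0.16 beside Yap1 amplification, and from -0.37 to 0.44 with a median of -0.023 without it. In KP it ranged from -0.68 to 0.26 with a median of -0.14 beside amplification, and from -0.59 to 0.16 with a median of -0.0072 without it. The 2 sets of tumours overlapped over most of their range in both genotypes. These counts at -0.1 use values without the autosomal median subtracted, and they were not repeated with it subtracted.

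Yap1 amplification moved with histology. In KB1(L1363P)P, Yap1 reached 1 in 10 of 12 sarcomatoid tumours, 2 of 9 carcinosarcomas and 0 of 3 adenocarcinomas. In KP it reached 1 in 9 of 10 sarcomatoid tumours, 1 of 2 carcinosarcomas and 1 of 6 adenocarcinomas. The interval mean was at most -0.1 in 9, 5 and 0 tumours of these KB1(L1363P)P classes, and in 7, 2 and 3 of these KP classes. Yap1 was below 1 in 3 of the 5 low KB1(L1363P)P carcinosarcomas and 2 of the 3 low KP adenocarcinomas. The only sarcomatoid KB1P tumour, replicate 9, had Yap1 at 4.49, and its interval mean was -0.093. The part of histology in the relation of Yap1 to the interval was not tested.

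The low interval beside an amplified Yap1 was mostly shared by the rest of chromosome 9. In 11 of 12 KB1(L1363P)P and 9 of 11 KP tumours with Yap1 at 1 or above, the interval lay within 0.1 of the level beyond 45 Mb. Few of these were called losses: of the tumours with at least 50% of members called lost, only KP replicate 3 had Yap1 at 1 or above. KP replicates 1 and 7 and KB2P replicate 2 carried such a loss with Yap1 at -0.53, -0.83 and -0.028. The unbroken run of gain calls over Yap1 ended before 12 Mb in all 12 amplified KB1(L1363P)P tumours, in 8 of 11 KP and in 2 of 2 KB1P tumours. In KP replicates 10, 13 and 17 it ran into the interval, to 16.5, 13.29 and 14.11 Mb, and in KB2P replicate 7 it ran to 35.91 Mb. A gain that resumed after a gene without a gain call is not counted here. High stretches began at Gm29785 in KP replicate 12, at up to 4.26, and in KB1P replicate 24, at up to 2.80. Another began at 14.35 Mb in KB1(L1363P)P replicate 16, at up to 1.07. At the start of the interval the last gene outside, Gm18160, averaged 0.49 in KB1(L1363P)P and 0.42 in KP, whereas Gm29785, the first gene inside, averaged -0.090 and 0.23. In KB1P these 2 genes averaged 0.28 and 0.29, and in KB2P 0.17 and 0.17. At the far end Cd3d inside and Cd3e outside had equal means in every genotype, -0.12, -0.16, 0.058 and 0.076.

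**Figure D4:**
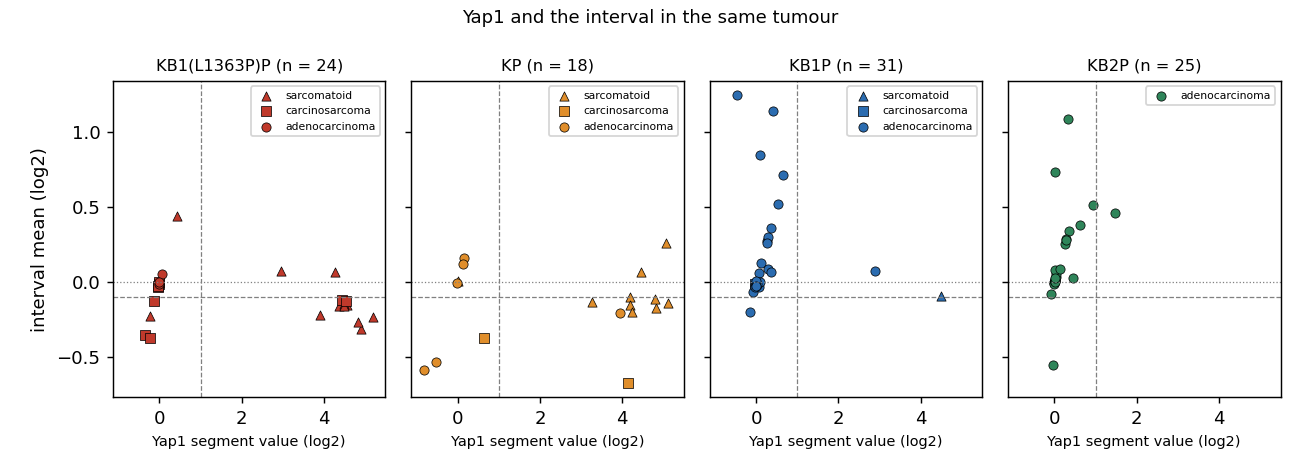
Interval mean (log2, vertical axis) against the Yap1 segment value (log2, horizontal axis) in the same tumour, one panel per genotype, with symbols for histology and dashed lines at a Yap1 value of 1 and an interval mean of -0.1. Of the KB1(L1363P)P and KP tumours right of the vertical line, 10 of 12 and 9 of 11 lie at or below the horizontal one; the highest KB1P and KB2P intervals stand left of the line.

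In KB1P and KB2P most gained intervals came with a called gain of Yap1. Of the tumours with at least 50% of members called gained, Yap1 was also called gained in 4 of 6 KB1P and 5 of 6 KB2P tumours, and it was not in KB1P replicates 7 and 18 and KB2P replicate 24. KB1P replicate 7 had the highest interval mean, 1.25, with all members between 0.86 and 1.58, while Yap1 was at -0.46 and the chromosome beyond 45 Mb averaged -0.46. KB1P replicate 18 averaged 0.85 with a highest member at 1.82 and Yap1 at 0.099, and KB1P replicate 26 averaged 1.14 with Yap1 at 0.40. KB2P replicate 8 averaged 1.09 with Yap1 at 0.33, and KB2P replicate 24 averaged 0.74 with Yap1 at 0.0033. In KB2P replicate 7 the interval averaged 0.46 and Yap1 was at 1.47, and in KB2P replicate 9 these values were 0.51 and 0.95. KB1P replicate 21 had the interval at 0.72 and Yap1 at 0.66, and KB1P replicate 23 had both at 0.52.

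High-level gain, a segment value of at least 1, reached members in 12 tumours: 1 KB1(L1363P)P, 3 KP, 5 KB1P and 3 KB2P. Yap1 was at 1 or above in 6 of these 12, and in 26 of all 98 tumours. No member reached -1 in any tumour, and the lowest value was -0.85. Every member reached 1 in at least 1 tumour, and 42 members between 13.09 and 15.74 Mb did so in 7 tumours, the most of any member. High-level gain was not counted over all placed genes, so these counts do not show whether the interval is unusual. The 42 members include Maml2 (chr9:13296561-13709533), a Notch coactivator, and Amotl1 (chr9:14541966-14662974), an angiomotin family protein that binds YAP. Both were chosen for mention after their values were seen, although Maml2 also flanks a frequent step.

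Maml2 had a segment value from -0.37 to 0.44 with a median of -0.13 in KB1(L1363P)P, from -0.83 to 3.67 with a median of -0.055 in KP, from -0.27 to 2.80 with a median of 0.062 in KB1P and from -0.083 to 1.87 with a median of 0.025 in KB2P. It was high in KP replicate 12 at 3.67, in KB1P replicate 24 at 2.80, in KB1P replicate 26 at 2.68 and in KB2P replicate 7 at 1.87. Most tumours of every genotype were far below these, and the KP mean of 0.19 fell to -0.019 without replicate 12. Amotl1 reached 1 in 1 KB1(L1363P)P, 0 KP, 4 KB1P and 2 KB2P tumours, so it and Maml2 were not always gained together. In KP replicate 12 Amotl1 was at 0.014 beside Maml2 at 3.67, and in KB1(L1363P)P replicate 16 Amotl1 was at 1.07 beside Maml2 at -0.0012. The high stretch of KB1(L1363P)P replicate 16 ran over 35 genes from Endod1 to Slc36a4, a stretch between 14.35 and 15.74 Mb.

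In KP 3 of 4 high stretches lay near the start of the interval, and the other lay near its far end. KP replicate 12 reached 4.26 from Gm29785 to Maml2, beside Yap1 at 4.46. KP replicate 17 was above 1 over 5 genes from Mtmr2, a phosphoinositide phosphatase, to 1700019J19Rik, and KP replicate 10 over 9 genes from 4930568E12Rik to 1700019J19Rik. KP replicate 10 had a second high stretch of 17 genes from Olfr980 to Gm48277, between 40.01 and 40.56 Mb, at 1.32. In KB1P the stretches were longer and often broken. KB1P replicate 26 had 6 separate stretches above 1, among them 95 genes from Gm29785 to Gm7769, 31 genes from Elavl3 to Gm3028 at up to 2.99, and 85 genes from Olfr944 to 4930546K05Rik at up to 4.34.

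That last stretch held the microRNA genes whose strands are printed above. Mir100 lay between -0.37 and 0.44 with a median of -0.14 in KB1(L1363P)P, between -0.84 and 0.16 with a median of -0.15 in KP, between -0.45 and 4.34 with a median of 0.0076 in KB1P and between -0.70 and 1.57 with a median of 0.025 in KB2P. All 3 genes of the cluster reached 1 in 5 tumours. Mir100 was at 4.34 in KB1P replicate 26, 1.26 in KB1P replicate 7, 1.16 in KB1P replicate 18, 1.57 in KB2P replicate 8 and 1.20 in KB2P replicate 24. Replicate 26 stands apart, whereas the other 4 continue a range in which KB1P replicates 27 and 21 lie just below 1; none of the KB1(L1363P)P or KP tumours reached 1. The KB1P mean of Mir100 was 0.31, and 0.18 without replicate 26. Gain calls of Mir100 numbered 1 of 24, 0 of 18, 7 of 31 and 5 of 25 in KB1(L1363P)P, KP, KB1P and KB2P. The microRNA genes fall outside the naming rule and were chosen after their values were seen. No RNA was measured here, so the values are DNA copies only.

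**Figure D5:**
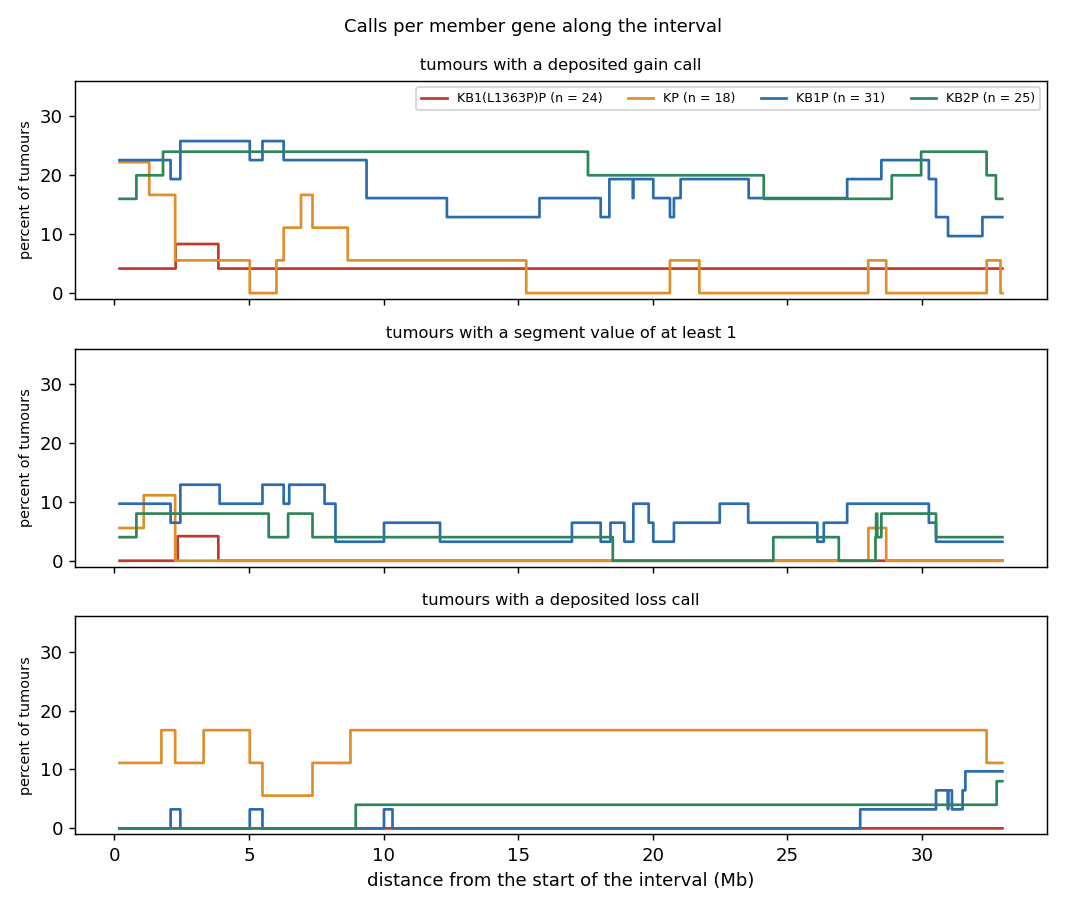
Percent of tumours per genotype (vertical axis) with a deposited gain call, a segment value of at least 1 or a deposited loss call, for each member by its distance from the start of the interval (Mb). Gain calls of KB1P and KB2P lie above those of KB1(L1363P)P along nearly all of the interval, KP gain calls are highest at the start, and loss calls are highest in KP.

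The genes of 5 role lists took the values of the segments they lie in, so agreement between neighbours is built in. H2afx, Cdkn2d, Swsap1 and Epor were not analysed here, and Carm1 stands in both the chromatin and the signalling list. Over all placed autosomal genes, the median gene was called gained in 0 KB1(L1363P)P, 0 KP, 5 KB1P and 4 KB2P tumours. It was called lost in 1, 0, 5 and 4. Among chromatin genes, the 6 measured members had means between -0.12 and -0.090 in KB1(L1363P)P, -0.21 and -0.14 in KP, 0.058 and 0.24 in KB1P, and 0.076 and 0.21 in KB2P. Dnmt1, the maintenance DNA methyltransferase, was called gained in 1, 1, 7 and 6 tumours of these groups and lost in 0, 3, 0 and 0. Smarca4, the ATPase of the SWI/SNF remodelling complex, was called gained in 1, 1, 5 and 6 tumours and lost in 0, 3, 0 and 1. Kmt2a, a histone H3 methyltransferase at the far end, was called gained in 1, 1, 4 and 4 and lost in 0, 2, 3 and 2. Kmt2a thus had about as many losses as gains in KB1P, unlike Dnmt1.

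The 5 measured genes of division and damage response were called lost in 0 of 24 KB1(L1363P)P and 3 of 18 KP tumours each, and gained in 4 to 5 of 31 KB1P and 4 to 6 of 25 KB2P tumours. Anln, the gene of the cytokinesis scaffold anillin, reached 2.99 in KB1P replicate 26, and its KB1P mean was 0.18, or 0.086 without that tumour. Spc24, a kinetochore subunit, averaged -0.090, -0.15, 0.12 and 0.19 in KB1(L1363P)P, KP, KB1P and KB2P.

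Among the 6 transcription factors, Ets1 and Fli1, neighbouring ETS family genes, reached 1.42 in KB1P replicate 18 alone. Ets1 lay between -0.84 and 0.99 in KP and Fli1 between -0.84 and 0.16, since a breakpoint of KP replicate 10 ran between them. Barx2, a homeobox gene, reached 2.15 in KB1P. Loss calls of the list numbered 0 in KB1(L1363P)P, 3 in KP, 0 to 1 in KB1P and 1 in KB2P per gene.

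In the signalling list the 7 measured genes averaged between -0.12 and -0.090 in KB1(L1363P)P, -0.21 and -0.079 in KP, 0.020 and 0.15 in KB1P, and 0.11 and 0.22 in KB2P. Cbl, a ubiquitin ligase for receptor tyrosine kinases near the far end, was called gained in 1, 0, 3 and 6 tumours and lost in 0, 3, 3 and 1. Tyk2, a Janus kinase, was called gained in 1, 1, 7 and 6 tumours and lost in 0, 3, 0 and 1.

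The 10 adhesion and surface genes had the widest KB1P means, from 0.013 for Thy1 to 0.28 for Fat3, an atypical cadherin near the start of the interval. Sorl1, a sorting receptor next to the microRNA cluster, reached 2.54 in KB1P and 1.55 in KB2P and was at 1 or above in 3 and 2 tumours of these groups. Icam1, the leukocyte adhesion ligand, was called gained in 1, 1, 7 and 6 tumours of KB1(L1363P)P, KP, KB1P and KB2P. Loss calls of Icam1 numbered 0, 3, 0 and 1 in these groups.

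Along the interval the KB1P mean was highest at the start and around the microRNA cluster. In windows of 3 Mb it was 0.32 at 12 to 15 Mb, 0.097 at 24 to 27 Mb, 0.24 at 39 to 42 Mb and 0.060 at 42 to 45 Mb. KB2P had 0.25, 0.17, 0.12 and 0.15 in the same windows. KB1(L1363P)P was nearly flat, from -0.056 at 15 to 18 Mb to -0.12 at 42 to 45 Mb, and KP had -0.0036 at 12 to 15 Mb, -0.10 at 15 to 18 Mb, -0.051 at 18 to 21 Mb and -0.21 at 36 to 39 Mb.

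Breakpoints in the interval were rare in KB1(L1363P)P. No step was found in 21 of 24 KB1(L1363P)P, 11 of 18 KP, 15 of 31 KB1P and 13 of 25 KB2P tumours, and at least 10 steps in 0, 2, 7 and 3. The most frequent step, between the neighbouring cell adhesion genes Opcml and Ntm near 28.9 Mb, occurred in 4 KB1P and 3 KB2P tumours. The next, between Maml2 and Mtmr2 near 13.7 Mb, occurred in 4 KP, 1 KB1P and 1 KB2P tumours. After it 5 positions tied with 5 tumours each, among them Grik4, a kainate receptor subunit, with both of its sides in 4 KB1P and 1 KB2P tumours. A long gene that spans a breakpoint takes an intermediate value and shows a step on each side, so these counts can exceed the number of breaks.

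The called losses of the interval were few and each had its own extent. KP replicate 1, an adenocarcinoma, was at -0.53 along the whole chromosome. KP replicate 3, a carcinosarcoma, had 86.2% of the members called lost and a highest member at 0.89. KP replicate 7, an adenocarcinoma, had 76.9% of members lost and 16.2% gained, with 10 steps. KB2P replicate 2 had 77.6% lost, with an interval mean of -0.55. In KB1P the interval as a whole was lost in none of 31 tumours, and 5 tumours had a called loss of some member, with 23.4% of the members in replicate 29 the largest share.

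Differences that the choice of the interval did not name were tested with limma on segment values of all 43513 genes. Adjustment was by Benjamini-Hochberg over all of them, with a threshold of 0.05. The choice put KB1(L1363P)P with KP, and KB1P with KB2P, on the same side, which favours few called members within these pairs. It also used Yap1, which moved with histology, so the histology contrasts are not free of the choice. Between KB1(L1363P)P and KP, 0 of 581 members were called, and 0% of all genes were called; at an unadjusted threshold 0 members and 15 of all genes passed. The smallest adjusted p of a member was 0.996 by limma, and the median difference was 0.091 over members against -0.011 over all genes. Gm29785 had the smallest p, at -0.090 in KB1(L1363P)P and 0.23 in KP, a difference of -0.32 ± 0.18 (SE), and the KP mean was -0.012 without replicate 12. In adenocarcinomas alone 0 members and 0% of all genes were called, and 0 members and 3005 of all genes passed unadjusted. Without KB1(L1363P)P replicate 7, 19 or 21 the count over all genes was 343, 212 or 591, with 0 members each time. Adamts8, an extracellular protease gene, was at 0.012 in KB1(L1363P)P (n = 3) and -0.22 in KP (n = 6), a difference of 0.23 ± 0.19 (SE, adjusted p = 0.931 by limma).

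Between KB1P and KB2P, 0 members were called where 1.36% of all genes were, and 0 members passed unadjusted where 7035 of all genes did. Thy1, a cell surface glycoprotein, and its neighbour Gm39323 had the smallest p. Thy1 averaged 0.013 in KB1P and 0.16 in KB2P, a difference of -0.15 ± 0.082 (SE, adjusted p = 0.359 by limma). Its values ran from -0.76 to 1.26 in KB1P and from -0.70 to 1.20 in KB2P, so the groups overlapped almost fully. On the unsegmented log2 ratios 4 of 581 members (0.688%) were called, where 2.3% of all genes were. Fewer of all genes were called on segment values in adenocarcinomas alone (60) or with library series as a random block (65) than in the fit above (593).

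Between histologies within a genotype no member was called by limma either. Sarcomatoid tumours and carcinosarcomas of KB1(L1363P)P gave 0 called members where 0.0919% of all genes were called, with 0 members and 2264 of all genes passing unadjusted. Endod1, an endonuclease domain gene, had the smallest p, at 0.0059 in sarcomatoid tumours and -0.13 in carcinosarcomas, a difference of 0.14 ± 0.19 (SE, adjusted p = 0.976 by limma). Without replicate 16 that difference was 0.041.

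Sarcomatoid tumours and adenocarcinomas of KP gave 0 called members where 0.085% of all genes were called, and 6 members and 1492 of all genes passed unadjusted. Gm29785 averaged 0.56 in sarcomatoid tumours (n = 10) and -0.22 in adenocarcinomas (n = 6), a difference of 0.78 ± 0.29 (SE, adjusted p = 0.999 by limma), which was 0.36 without replicate 12. All sarcomatoid KP tumours were in library series 5750, so histology and series cannot be told apart. The difference between the sarcomatoid against adenocarcinoma contrasts of KB1(L1363P)P and KP gave 0 called members and 0 called genes, with a smallest adjusted p of 0.979 among members by limma.

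Within KB1P adenocarcinomas, those titled KB1PM and those titled KB1P gave 0 called members where 1.33% of all genes were called, and 39 members and 9628 of all genes passed unadjusted. The 577 called genes behind that share became 0 with library series as a random block, 0 after centring each tumour on its autosomal median and 6 on unsegmented ratios. Mtmr2 had the smallest p, at 0.68 in KB1PM (n = 10) and 0.17 in KB1P titles (n = 19), a difference of 0.50 ± 0.19 (SE, adjusted p = 0.105 by limma). It was 0.27 without replicate 24 and 0.28 without replicate 26, the 2 KB1PM tumours with Mtmr2 above 2.

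By histology the interval mean of KB1(L1363P)P was -0.11 ± 0.21 in sarcomatoid tumours (n = 12), -0.13 ± 0.14 in carcinosarcomas (n = 9) and 0.012 ± 0.036 in adenocarcinomas (n = 3). In KP it was -0.070 ± 0.14 in sarcomatoid tumours (n = 10), with a median of -0.12, and -0.18 ± 0.33 in adenocarcinomas (n = 6); the 2 carcinosarcomas were at -0.68 and -0.38. The KB1(L1363P)P carcinosarcomas averaged -0.072 ± 0.062 in library series 5289 (n = 6) and -0.25 ± 0.19 in series 5490 (n = 3), and the part of the series was not tested. None of the 3 KB1(L1363P)P adenocarcinomas had an interval mean of -0.1 or lower. In adenocarcinomas of KB1P it was 0.20 ± 0.36 (n = 29). Most tumours of KB1P and KB2P are adenocarcinomas and most of KB1(L1363P)P and KP are not, so genotype and histology can be compared only in these small sets.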

How the data were processed

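Members and gene lists were chosen with earlier results of these data known. Per the labels' protocols, BWA alignments were summed over 20 kb bins, which were then adjusted for GC content and for mappability; the protocol names a human build, while the submitters' processing notes name cutadapt 2.5, BWA 0.7.17, SAMtools 1.10, Picard and genome build mm10. The authors deposited 3 matrices: log2 ratios, log2 segment values and a copy score of whole numbers with 2 as neutral. In 99.9919% of cells the deposited score was the rounded linear form of its segment value. For the segmentation tool, nothing is given in the sources used here, and read depth is unknown. Between adjacent genes of chromosome 9 the deposited log2 ratios scattered by 0.037 to 0.098 in a tumour (SD from the median absolute difference).

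Positions came from RefSeq on GRCm38.p6, in which 32657 symbols were found and 30 more by synonym, leaving 10826 unplaced. Interval values are means over members per tumour. limma 3.58.1 in R 4.3.3 was fitted to 98 tumours as 4 genotype means, or as means by genotype and histology with KB1P adenocarcinomas split by title; limma and the step counter were tested on simulated data. Other steps used Python 3.11.15, NumPy 2.4.6, pandas 2.3.3 and matplotlib 3.10.9. Named are the end genes, 5 role lists, genes at the 3 most frequent steps, ends of stretches at 1 or above, the member with the smallest p per contrast, and Yap1, Birc2, Birc3, Atm and Ctnnb1; a further gene of this rule is not reported here. Alternatives covered segmentation, scaling, histology, library series, bounds, labels and thresholds. Gene roles are general knowledge.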

Additional observations from a re-analysis of the deposited data

How the results depend on the processing

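Read depth is unknown, so no counting interval can be given, and the authors' calls leave out shallow changes. With thresholds of 0.1, 0.2 and 0.3 on the interval mean in place of the authors' calls, lost intervals numbered 14, 7 and 3 in KB1(L1363P)P against 0, and 12 and 6 in KP at the first 2 thresholds against 3. KB1P had 1 and 1 against 0. Gained intervals numbered 3 and 1 in KP at 0.1 and 0.2 against 0. At these 2 thresholds they numbered 10 and 9 in KB1P against 6, and 9 and 9 in KB2P against 6. Tumours with a Yap1 gain call and an interval of at most -0.1 numbered 10 in KB1(L1363P)P and 10 in KP; set against chromosome 9 beyond 45 Mb there were 0 and 0, and 1 in KB2P against 0. On unsegmented log2 ratios, KB1P against KB2P gave 4 called members in place of 0, with 1001 of all genes called in place of 593. The cause of these changes was not tested.

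Leaving out single tumours moved the interval mean between -0.126 and -0.0910 in KB1(L1363P)P, between -0.180 and -0.125 in KP, between 0.143 and 0.192 in KB1P and between 0.123 and 0.191 in KB2P. Leaving out each KB1(L1363P)P adenocarcinoma gave 0 called members each time, although 212 to 591 of all genes were called in place of 0. In library series 5289 alone the KP mean was -0.41 (n = 3). Medians over tumours, chosen as an alternative after seeing the data, put KB1P at 0.0024 and KB2P at 0.035. In adenocarcinomas alone the KB1(L1363P)P mean was 0.012 (n = 3), opposite in sign to that of all 24. No paired analysis was made. Replicate numbers were given in accession order and pair no samples, and the labels do not say what shared title numbers mark. With shared title numbers of KB1(L1363P)P as a random block, added after seeing the data, 0 members were called in each of the 3 contrasts with KB1(L1363P)P, and 0, 37 and 0 of all genes, against 0, 40 and 0 without it.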

Other observations

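On the unsegmented log2 ratios 4 of 581 members (0.688%) differed between KB1P and KB2P by limma with adjustment over all genes, a share below the 2.3% of all genes called, and they are named because so few were called, after their values were seen. Olfr250 and Olfr251, olfactory receptor genes at 38.37 and 38.38 Mb, share the same values. Their log2 ratio averaged 0.20 ± 0.35 in KB1P and -0.46 ± 0.42 in KB2P (SD, n = 31 and 25), a difference of 0.66 ± 0.089 (SE, adjusted p = 3.23e-08 by limma). In the other groups it averaged -0.071 in KB1(L1363P)P, -0.13 in KP and 0.017 in the 3 spleens. No spleen was titled KB2P, so the spleens do not show whether normal tissue of that model has this low ratio. Ratios of at most -0.3 were found in 20 of 25 KB2P tumours and in 1 of 24 KB1(L1363P)P, 4 of 18 KP and 0 of 31 KB1P tumours. The segment value of the same 2 genes averaged 0.16 in KB1P and 0.12 in KB2P, so the segmented data do not show this low stretch. Olfr898, their neighbour at 38.35 Mb, had a ratio of 0.13 in KB1P and -0.27 in KB2P (adjusted p = 0.00221 by limma). Gm5364, at 43.68 Mb, went the other way, at 0.12 in KB1P and 0.42 in KB2P (adjusted p = 0.0455 by limma). The library series of KB2P held no other genotype, so genotype and series cannot be told apart for these genes.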
